A study of Mus musculus with 12 samples.

Results

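Complement components and clusterin were described in primary tumours of 4 mouse mammary carcinoma lines, through 9 genes: C3, C4b, C2, Cfb, Cfp, Serping1, C3ar1, C5ar1 and Clu. Members were the probesets (groups of probes within 1 stretch of a transcript) paired with 1 of these symbols alone. Of the 9 symbols, 7 had probesets of their own, 129 of the 228090 probesets on the array. C3 had 43, Cfb 22, C2 21, C4b 15, Clu 13, Serping1 9 and C3ar1 6. No probeset used here was paired with Cfp, the stabiliser of the alternative pathway convertase, or C5ar1, a receptor for C5a, so both were not analysed here. The 9 symbols were chosen from measured values of these same arrays. Differences in gene level among them are therefore given as a description, without a test.

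The 12 arrays, 3 per line, held total RNA from tumours of 67NR, 168FARN, 4T07 or 4T1 cells, grown in the mammary fat of BALB/c females that were 3 months old. The labels count 8 mice for 67NR, 11 for 168FARN, 15 for 4T07 and 13 for 4T1, and tumours were removed once the group average reached 1 to 2 cm. No genotype or treatment other than the line separates the groups, and the BALB/c hosts have their own complement and immune cells. Each group is 1 cell line, known in order as non-metastatic, reaching lymph nodes, reaching the lung without visible nodules, and fully metastatic, so line and behaviour cannot be told apart. Nothing states that the 3 arrays of a line came from separate animals, so p-values reflect only how these samples scatter, and that scatter may be technical. A gene's level was the median log2 signal of its probesets, and line values are given as mean ± SD (n = 3 arrays). Array medians lay between 7.21 and 7.57, and arrays of 1 line correlated at 0.9787 to 0.989 over gene levels. As a scale of background, the 95th percentile of 335 olfactory receptor genes was 5.08. Arrays 2 and 3 of 168FARN stood apart in skeletal muscle markers, and some, but not all, values that rest on them are also given without them. Tumours hold many cell types, so fewer cells of a type and less RNA per cell cannot be told apart.

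Complement is a cascade of blood and tissue proteins that coat targets, draw in leukocytes and can open pores in membranes. The classical and lectin routes cut C4 and C2, the alternative route uses C3 with factor B (Cfb), and all of them meet at the cleavage of C3. Serping1 encodes the C1 inhibitor, which blocks the first proteases, and Clu encodes clusterin, a secreted chaperone that also binds the terminal complex. The liver makes most complement of the blood, while macrophages, fibroblasts and epithelial cells make it locally, in tumours as well.

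C3 and C3ar1 are shown by their start regions because C3 differed several-fold between lines while the gene for its receptor hardly did. RefSeq windows of 300 bases around the annotated start, on GRCm38.p6, were matched by symbol to 4 of the 9 genes, and C3 and C3ar1 are those with values here. The C3 window is chr17:57228087-57228386 and the C3ar1 window chr6:122856108-122856407, both on the minus strand and printed 5′ to 3′, with matches to the motifs searched in capitals.
C3: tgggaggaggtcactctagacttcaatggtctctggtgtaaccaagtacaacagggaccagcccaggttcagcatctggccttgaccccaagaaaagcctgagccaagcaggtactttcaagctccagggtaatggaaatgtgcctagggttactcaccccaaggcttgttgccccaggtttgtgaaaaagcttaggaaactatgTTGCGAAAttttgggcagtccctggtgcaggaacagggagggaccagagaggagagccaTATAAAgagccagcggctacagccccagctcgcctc
C3ar1: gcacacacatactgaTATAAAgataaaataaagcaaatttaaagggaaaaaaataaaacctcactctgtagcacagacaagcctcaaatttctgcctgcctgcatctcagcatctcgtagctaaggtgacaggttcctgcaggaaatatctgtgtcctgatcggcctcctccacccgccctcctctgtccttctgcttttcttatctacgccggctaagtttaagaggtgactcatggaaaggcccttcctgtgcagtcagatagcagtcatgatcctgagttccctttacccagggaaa

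Motifs were searched on both strands, and none of the matches below overlap each other. TATAAA, the letters of a TATA box, began at 14 from the annotated start of C3 and at -235 from that of C3ar1, counting the start as 0, and 13.6% of 32851 mouse windows of the same length hold it. TTGCNNAA, the form bound by C/EBP factors, matched C3 as TTGCGAAA at -45, and 10.8% of windows hold it. TTCNNNGAA (the STAT form), GAAANNGAA (an interferon response form) and GGANNTTCC (an NF-kappaB form) are held by 8.3%, 8.56% and 4.26% of windows, and matched neither gene here. A match describes letters in this window, not a site in use.

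C3, the component on which all routes meet, was highest in 4T07 tumours. Its levels were 10.96, 11.29 and 10.82 on the 3 arrays of 4T07, and 10.06, 10.05 and 10.41 in 4T1. They were 9.91, 9.50 and 10.09 in 168FARN, and 9.45, 9.43 and 9.50 in 67NR. Every 4T07 array lay above every array of the other lines, every 4T1 array lay above every 67NR array, and 168FARN overlapped with both 4T1 and 67NR. The difference of 4T07 from 67NR was 1.56 ± 0.18 (SE) on the log2 scale, or 2.95-fold, and that from 168FARN was 1.19 ± 0.18. C3 in 4T1 was 0.85 below 4T07 (-0.85 ± 0.18) and 0.72 ± 0.18 above 67NR, or 1.64-fold.

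C4b, which encodes the C4 shared by the classical and lectin routes, followed another order: it was highest in 4T07, nearly as high in 67NR and low in 168FARN and 4T1. Arrays of 67NR read 9.62, 10.00 and 9.86, and those of 4T07 10.09, 10.52 and 10.36. Those of 168FARN read 8.53, 7.32 and 7.82, and those of 4T1 8.39, 8.53 and 8.89. The 2 high lines did not overlap with the 2 low ones, and 168FARN and 4T1 overlapped with each other. C4b in 168FARN was 3.84-fold lower than in 67NR (-1.94 ± 0.26), and 4T07 was 5.4-fold higher than 168FARN (2.43 ± 0.26). In 4T1 it was 2.34-fold lower than in 67NR (-1.23 ± 0.26) and 3.29-fold lower than in 4T07 (-1.72 ± 0.26).

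The spread of C4b within 168FARN was wide, and the 2 lower arrays were those rich in muscle markers. Without arrays 2 and 3, the difference from 67NR was -1.30 that of 4T07 from 168FARN 1.79 and that of 4T1 from 168FARN 0.07 in place of 0.71, with the single array left assumed to vary like the others. Another 31 probesets were paired with both C4b and C4a, its near copy, which RefSeq lists as a transcribed pseudogene. These 31 were kept out of the level above, and their median fell in the same order of lines: 8.48 ± 0.56 in 168FARN, 9.28 ± 0.29 in 4T1, 10.43 ± 0.15 in 67NR and 10.85 ± 0.04 in 4T07. Signals of the 2 copies cannot be separated there.

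C2, which encodes the protease of the classical C3 convertase, stood little above the background level, with its highest level in 4T07. Its arrays read 7.12, 7.14 and 7.09 in 4T07, 6.28, 5.81 and 6.12 in 168FARN, 5.77, 5.70 and 6.36 in 4T1, and 5.87, 5.58 and 5.82 in 67NR. The 3 lower lines overlapped with one another, and 4T07 lay above all of them. C2 in 4T07 was 2.56-fold higher than in 67NR (1.36 ± 0.19), 1.04 ± 0.19 above 168FARN, and 4T1 differed from 4T07 by -1.17 ± 0.19.

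Cfb, which encodes the protease of the alternative C3 convertase, was also highest in 4T07, with 9.69, 10.07 and 10.09. It read 9.20, 9.19 and 9.68 in 4T1, 9.41, 9.22 and 9.21 in 67NR, and 8.26, 8.70 and 9.24 in 168FARN. All arrays of 4T07 lay above those of the other lines, narrowly so for the closest 4T1 array, and the other 3 lines overlapped. The differences of 4T07 were 0.67 ± 0.23 from 67NR (1.59-fold) and 1.22 ± 0.23 from 168FARN (2.32-fold), and 4T1 minus 4T07 was -0.59 ± 0.23. Without arrays 2 and 3 of 168FARN, 168FARN minus 67NR moved from -0.54 to -1.01 4T07 minus 168FARN to 1.69, and 4T1 minus 168FARN from 0.62 to 1.09.

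C4b, Cfb and C2 are near neighbours in the class III region of the histocompatibility complex, and Cfb and C2 lie next to each other. By the order of genes in RefSeq on GRCm38.p6, Stk19, Dxo, Skiv2l and Nelfe lie between C4b and Cfb, and their line means ranged over 0.37, 0.25, 0.46 and 0.35 log2 units. Skiv2l, an RNA helicase gene, had means of 8.23 ± 0.15 in 67NR, 8.69 ± 0.05 in 168FARN, 8.49 ± 0.24 in 4T07 and 8.43 ± 0.22 in 4T1. Cyp21a1 lies there as well and was under the background level in every line, from 3.28 ± 0.38 in 67NR to 4.05 ± 0.71 in 4T1. Each of the 4 genes above background had its highest mean in 168FARN, but in Stk19 and Dxo the lines were nearly level. Stk19 read 7.71 ± 0.04 in 168FARN against 7.67 ± 0.16 in 4T1, and Dxo 7.26 ± 0.25 against 7.24 ± 0.06.

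Serping1, the gene of the C1 inhibitor, had its highest level and its smallest spread in 4T07, with 10.19, 10.33 and 10.26. It read 8.79, 9.30 and 9.55 in 4T1, 9.09, 8.78 and 8.45 in 67NR, and 8.66, 8.28 and 8.72 in 168FARN. Again 4T07 lay above all other arrays, 4T1 overlapped with 67NR but lay above 168FARN, and 67NR overlapped with 168FARN. Its level in 4T07 was 2.80-fold above 67NR (1.49 ± 0.21), 3.26-fold above 168FARN (1.70 ± 0.21) and 2.07-fold above 4T1 (4T1 minus 4T07, -1.05 ± 0.21).

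Clu, the clusterin gene, showed the largest differences among the members and set 67NR apart from the other 3 lines. Its arrays read 8.41, 8.21 and 7.78 in 67NR, against 11.91, 12.04 and 11.75 in 168FARN, 10.97, 11.43 and 11.52 in 4T07, and 11.22, 11.38 and 11.60 in 4T1. No array of the other lines came near 67NR, 4T07 and 4T1 overlapped, and 168FARN lay above both. The level was 13.6-fold higher in 168FARN than in 67NR (3.76 ± 0.20), 9.0-fold higher in 4T07 (3.17 ± 0.20) and 9.6-fold higher in 4T1 (3.26 ± 0.20). Between the 3 high lines the differences were small: -0.59 ± 0.20 for 4T07 minus 168FARN, -0.50 ± 0.20 for 4T1 minus 168FARN and 0.09 ± 0.20 for 4T1 minus 4T07.

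C3ar1, which encodes the receptor for the C3 fragment C3a on myeloid cells, varied least. It read 10.63, 10.58 and 10.37 in 67NR, 10.04, 10.73 and 10.13 in 168FARN, 9.99, 10.34 and 10.35 in 4T07, and 10.36, 10.58 and 10.51 in 4T1. Only 4T07 fell below the arrays of another line, by a narrow gap below both 67NR and 4T1. With all arrays, the 6 differences between lines lay between -0.30 and 0.26, each with an SE of 0.19. Without arrays 2 and 3 of 168FARN, 168FARN minus 67NR was -0.49, 4T07 minus 168FARN 0.19 and 4T1 minus 168FARN 0.45, so 168FARN in place of 4T07 was the lowest line.

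**Figure D1:**
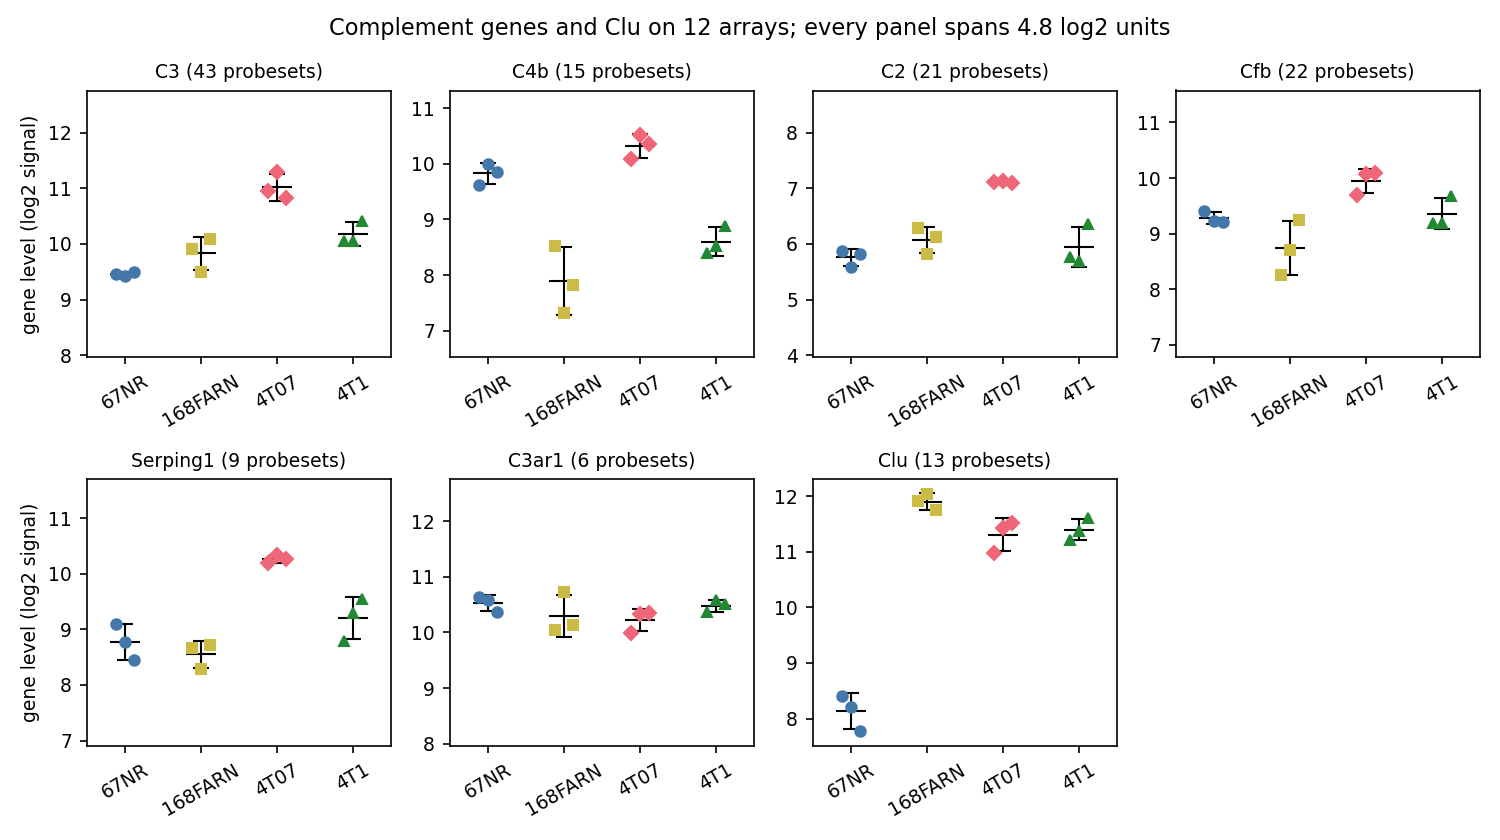
Gene level (median log2 signal of the probesets, vertical axis) of the 7 measured genes on each of the 12 arrays, by line, with the mean and SD (n = 3) as bars. C3, C4b, C2, Cfb and Serping1 are highest in 4T07, C4b is low in 168FARN and 4T1, Clu is low in 67NR alone, and C3ar1 stays between 9.99 and 10.73.

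Read against all 15025 genes, the counts of members past an adjusted p of 0.05 (limma) were as follows, and since the members were chosen on such values nothing is read from them. Between 168FARN and 67NR, 2 of 7 members were past it, where 24.7% of all genes were. Between 4T07 and 67NR 5 of 7 were past it (23.7% of all genes), and between 4T1 and 67NR 3 of 7 (22.3%). Between 4T07 and 168FARN 6 of 7 were past it (28.3%), and between 4T1 and 168FARN 1 of 7 (31.2%), a count that was 0 without 168FARN array 2, 4T1 array 2 or 4T1 array 3 and 2 without 168FARN array 1, 168FARN array 3 or 4T07 array 1. Between 4T1 and 4T07, the pair with the fewest genes called, 4 of 7 were past it, C3, C4b, C2 and Serping1, all lower in 4T1, against 2.38% of all genes. Without 4T07 array 2, 4T1 array 1 or 4T1 array 2, that last count was 2. The median difference of the 7 was 1.36 for 4T07 minus 67NR and 1.19 for 4T07 minus 168FARN, where the medians over all genes were -0.04 and -0.09. For 4T1 minus 4T07 it was -0.85, with a median over all genes of 0.00. The 3 comparisons with 67NR share its arrays, as the comparisons of any other line share theirs.

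Single probesets of a gene mostly moved as its level did. All 43 probesets of C3 were higher on every 4T07 array than on every 67NR array, by 1.05 to 1.87, and 41 of 43 were higher on every 4T1 array. All 15 probesets of C4b were lower on every array of 168FARN and of 4T1 than of 67NR, by medians of -1.98 and -1.18, and 11 of 15 were higher on every 4T07 array than in 67NR. Of the dimmer C2, 19 of 21 probesets were higher on every array of 4T07 than of 67NR, over a wide range of 0.23 to 2.50, and 4 of its probesets had means under the background level. For Cfb it was 19 of 22, for Serping1 8 of 9, and for C3ar1 4 of 6 were lower. Clu had 12 of 13 probesets higher in each of 168FARN, 4T07 and 4T1 than in 67NR.

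**Figure D2:**
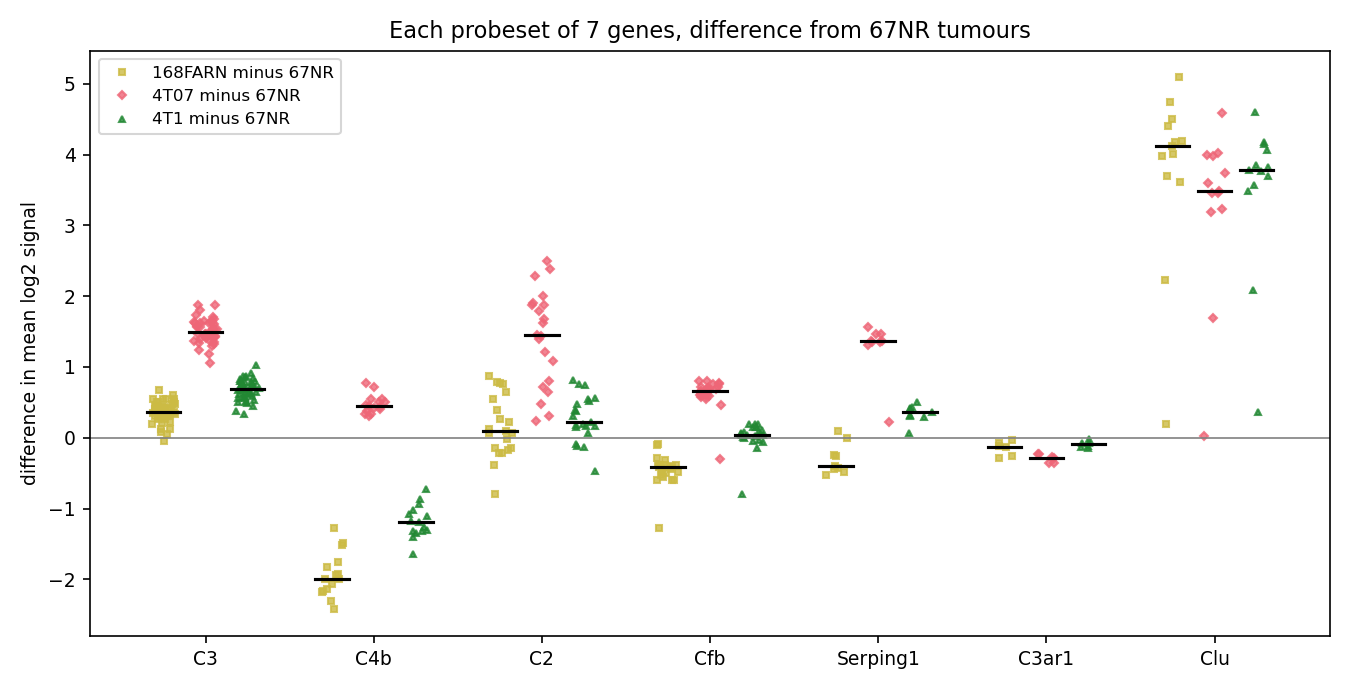
Difference in mean log2 signal from 67NR (vertical axis) for each probeset of the 7 genes, with 168FARN, 4T07 and 4T1 side by side; each point is 1 probeset and black lines are medians. C3 probesets in 4T07 stay within 1.05 to 1.87, C2 probesets spread from 0.23 to 2.50, and 1 Clu probeset stays near 0 in all 3 comparisons.

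Whether a probeset departed from the rest of its gene was tested with limma's diffSplice over 109801 probesets in 7345 genes, with a call at adjusted p under 0.05 where the log2 change relative to the gene also reached 1. C2 was too dim for this test, which left 108 probesets in 6 members. Against 67NR, 4 were called in 168FARN (0.731% of all probesets tested), 3 in 4T07 (0.658%) and 3 in 4T1 (0.724%), all of them in Clu. Between 4T07 and 168FARN 2 were called (0.752%), 1 in Serping1 and 1 in Cfb. None was called between 4T1 and 168FARN (1.23%) or between 4T1 and 4T07 (0.141%), where 4 and 1 had an unadjusted p under 0.05 by diffSplice. In Cfb the smallest adjusted p between 4T1 and 168FARN was 0.0402 by diffSplice, but no relative change reached 1 in size (-0.92 to 0.88). Under the splicing index, a second test, the probesets called in these 2 comparisons numbered 1 and 0. The exons that these probesets cover were not looked up here.

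Probeset 4345347 of Clu did not follow the gene. It read 9.10, 8.98 and 9.51 in 67NR, 9.23, 9.59 and 9.38 in 168FARN, 9.44, 9.15 and 9.12 in 4T07, and 9.42, 9.34 and 9.96 in 4T1, so all 4 lines overlapped. Since the other probesets rose, its change relative to them was -3.86 in 168FARN (adjusted p = 3.37e-22), -3.49 in 4T07 (1.8e-19) and -3.38 in 4T1 (8.9e-19). For a probeset that stays level, this relative change has the size of the gene's own difference, which was known when Clu was chosen. It was called in all 19 settings run, each single array left out included.

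Probeset 5139066 of Clu rose by less than the others, from 7.08, 7.65 and 7.08 in 67NR to 9.80, 9.74 and 8.95 in 168FARN, 8.49, 9.32 and 9.08 in 4T07, and 9.25, 9.31 and 9.51 in 4T1. Its relative changes were -1.67 (adjusted p = 9e-06), -1.70 (3.87e-06) and -1.53 (5.88e-05), and the call in 168FARN was lost without arrays 2 and 3 (-1.38, 0.0914). Probeset 4409376 rose by more: 5.44, 3.84 and 4.24 in 67NR, around the background level, against 9.53, 9.64 and 9.59 in 168FARN. Its relative changes were 1.42 in 168FARN (0.000274), 1.42 in 4T07 (0.000265) and 1.20 in 4T1 (0.00497). Without 67NR array 2, where it was lowest, none of the 3 was called (adjusted p = 0.0655, 0.0762 and 0.388). Without 4T1 array 2 the call in 4T1 was lost (0.0571). The call in 168FARN was lost without arrays 2 and 3 of 168FARN (0.127), and under the splicing index those in 168FARN (0.0632) and 4T1 (0.0561) were lost. Probeset 5249683 was called in 168FARN alone, at 1.05 (0.0211), and that call was lost without 67NR array 1 or 3 or 168FARN array 1 or 3 (adjusted p from 0.0577 to 0.519), without 168FARN arrays 2 and 3 together (0.509) and under the splicing index (0.0893).

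**Figure D3:**
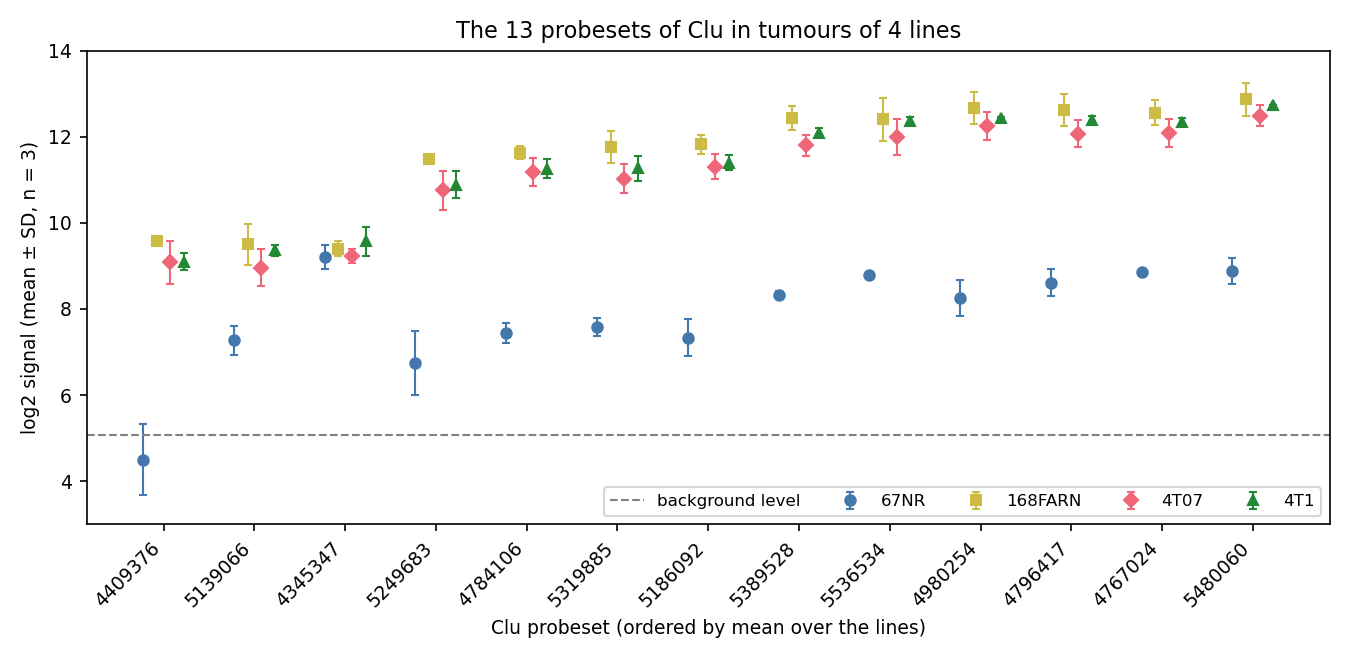
Mean log2 signal ± SD (n = 3, vertical axis) of the 13 Clu probesets in each line, ordered by their mean over the lines; the dashed line is the background level of 5.08. The 67NR points lie well below the others at 12 probesets, and at probeset 4345347 the 4 lines lie between 9.20 and 9.57.

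The Serping1 probeset called between 4T07 and 168FARN, 4970514, read 7.45, 8.28 and 7.94 in 168FARN and 8.40, 8.44 and 7.53 in 4T07, while the gene rose by 1.70. Its relative change was -1.51 (adjusted p = 0.00471), and the call was lost without 168FARN array 2 (0.191) or 4T07 array 3 (0.125). The Cfb probeset, 5352419, was dim, with 5.44, 5.96 and 6.47 in 168FARN and 5.76, 5.67 and 6.70 in 4T07, and had a relative change of -1.04 (0.0222). Leaving out 168FARN array 2 (adjusted p = 0.102), 4T07 array 1 (0.125) or 4T07 array 2 (0.392) ended that call, as did leaving out 168FARN array 3, where the relative change was -0.97. The largest relative change of any C3 probeset was 0.53 in size and that of any C4b probeset 0.74, and none was called with all arrays. Without 168FARN array 3, C4b probeset 5172911 was called between 4T07 and 168FARN. In that fit Cfb probeset 4537790 was called between 168FARN and each other line.

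Markers of several cell types differed between the lines in which the members differed, and their part in these results was not tested. None of the macrophage, neutrophil, interferon-stimulated, fibroblast, T and NK cell, B cell, epithelial or muscle genes measured was under the background level in every line. The mean level over the 12 macrophage markers, all measured, was highest in 67NR (9.57 to 9.58) and 4T1 (9.35 to 9.45), and lower in 4T07 (8.80 to 9.16) and 168FARN (8.89 to 8.98). Of these, Adgre1 was highest in 168FARN, at 9.81 against 9.76 in 67NR and 9.11 in 4T1. Mertk, Msr1 and Fcgr1 read 7.02, 9.18 and 9.62 in 67NR, below their 7.46, 9.27 and 9.90 in 4T07. The mean of the 10 of 12 neutrophil markers measured was 7.85 to 8.17 in 4T07 and 7.08 to 7.30 in 4T1, against 5.26 to 6.24 in 67NR and 5.61 to 6.48 in 168FARN. The mean of the 7 of 12 interferon-stimulated genes measured was highest in 4T07, as C3, C4b, C2, Cfb and Serping1 were. It was 9.66 to 9.98 there, against 8.84 to 9.49 in 168FARN, 8.73 to 9.27 in 4T1 and 8.27 to 8.50 in 67NR. Within that list Irf7 and Zbp1 were highest in 168FARN, at 10.36 and 10.59, against 9.98 and 10.24 in 4T07. The mean of the 10 fibroblast markers, all measured, was highest in 168FARN (10.11 to 10.23), then 4T07 (8.72 to 9.15), 4T1 (8.41 to 8.78) and 67NR (8.01 to 8.37). Col1a1 and Col1a2 went the other way, with 10.34 and 9.37 in 168FARN. They read 11.44 and 11.05 in 4T07, and 11.64 and 11.08 in 4T1.

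The mean of the 9 T and NK cell markers, all measured, had the order of lines of C4b: 6.10 to 6.38 in 168FARN, 6.34 to 6.80 in 4T1, 6.96 to 7.42 in 67NR and 6.86 to 7.75 in 4T07. Most single genes of the list did not keep that order. Gzma, Ncr1 and Cd4 were highest in 67NR, at 8.34, 6.70 and 6.28, against 6.14, 5.50 and 6.21 in 4T07. Gzma, Ncr1 and Nkg7 were lowest in 4T1, at 5.83, 5.45 and 7.34. Cd3e, Cd3g, Cd3d and Gzmb were higher in 4T1 than in 67NR. The mean of the 5 of 6 B cell markers measured was 6.98 to 8.56 in 4T07, 5.31 to 7.67 in 4T1, 5.83 to 6.81 in 168FARN and 5.70 to 5.95 in 67NR. The mean of the 9 of 10 epithelial markers measured was lowest in 67NR (5.68 to 6.36), as Clu was. It reached 6.68 to 6.80 in 168FARN, 8.18 to 9.72 in 4T07 and 9.10 to 9.39 in 4T1. In the carcinoma line 67NR the mean thus lay close to the background level. Grhl2 and Krt7 of that list were instead lowest in 168FARN, at 4.19 and 5.78, against 6.05 and 5.91 in 67NR. The 10 of 11 skeletal muscle markers measured had means of 5.59, 8.27 and 9.28 on the arrays of 168FARN, against 5.41 to 6.37 elsewhere. Of the 5 of 6 hepatocyte markers measured, 3 were under the background level in every line, and their mean was 4.28 to 6.04.

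**Figure D4:**
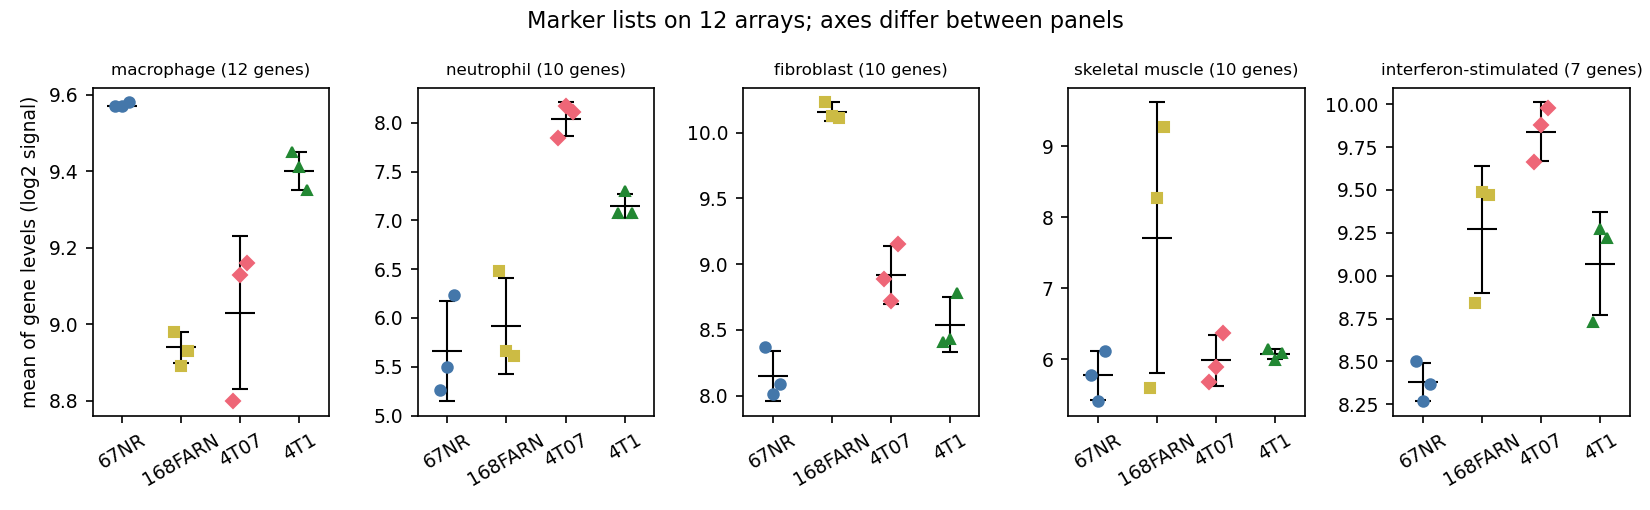
Mean gene level over each of 5 marker lists (log2 signal, vertical axis, scaled per panel) on the 12 arrays, by line, with mean and SD (n = 3) as bars. Neutrophil and interferon-stimulated means are highest in 4T07, the fibroblast mean is highest in 168FARN, and the muscle mean is raised on 2 of the 3 arrays of 168FARN.

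The rest of the complement system was read from a list of 43 other genes, of which 38 had a probeset and 36 were tested (limma, adjusted over all genes). Of the 36 tested, 10 had a mean level under 5.08 in every line. In 168FARN against 67NR, 5 of 36 rose and 11 fell, in 4T07 6 rose and 4 fell, and in 4T1 3 rose and 6 fell. In 4T07 against 168FARN 6 rose and 6 fell, in 4T1 against 168FARN 7 rose and 5 fell, and in 4T1 against 4T07 2 rose and 3 fell. In the same order, the called genes numbered 16, 10, 9, 12, 12 and 5 of 36, where 24.7%, 23.7%, 22.3%, 28.3%, 31.2% and 2.38% of all genes were called. The medians of the list, from -0.11 to 0.10, were close to those of all genes, from -0.09 to 0.04. Without arrays 2 and 3 of 168FARN, 6 of the 16 calls against 67NR were left, those of C1qa, C1s1, C6, Fcna, Masp1 and Vsig4.

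Among the genes that start the cascade, Masp1, which encodes a protease of the lectin route, rose in every line over 67NR, where it read 7.73, 7.43 and 7.56. It read 11.95, 12.04 and 11.79 in 168FARN, or 20.5-fold higher (4.36 ± 0.20, adjusted p = 2.04e-08), 9.60, 9.98 and 9.14 in 4T07 (2.00 ± 0.20, 1.12e-05), and 8.34, 8.67 and 8.23 in 4T1 (0.84 ± 0.20, 0.00861). The 4 lines did not overlap. With the mean of the probesets as the level, the rise was smaller in every line, so the size of 20.5-fold rests on the use of the median. The rises in 168FARN and 4T07 were still called with the mean. The rise in 4T1 was then 0.43 and did not pass the test (0.0739). Like Clu, Masp1 was lowest in 67NR and highest in 168FARN, and the difference of 4T1 from 67NR was 0.84 in Masp1 and 3.26 in Clu.

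C1s1, which encodes a protease of the C1 complex that Serping1 blocks, rose in 168FARN (2.77 ± 0.21, 6.80-fold, adjusted p = 1.33e-06) and in 4T07 (1.82 ± 0.21, 3.88e-05), with 6.99 ± 0.51 in 67NR and 6.86 ± 0.10 in 4T1. C1s1 has a near copy, C1s2, and probes that match both cannot tell them apart. Serping1 was highest in 4T07, while C1s1 was highest in 168FARN, where Serping1 was lowest. C1rl, a relative of the C1 protease genes, was also highest in 168FARN (8.21 ± 0.29, against 7.49 ± 0.11 in 67NR, 6.94 ± 0.15 in 4T07 and 6.76 ± 0.12 in 4T1). Its difference of 168FARN from 67NR was 0.72 ± 0.16, and 0.58 without arrays 2 and 3 of 168FARN. Fcna, the ficolin A gene, whose product recognises sugars for the lectin route, fell in 168FARN (-1.71 ± 0.16, 7.84e-06), 4T07 (-2.44 ± 0.16, 3.34e-07) and 4T1 (-1.38 ± 0.16, 3.74e-05). Of the genes for C1q, the recognition unit of the classical route, C1qb passed the test in no comparison (smallest adjusted p = 0.226). C1qc passed in none either (0.0803), but with the mean of probesets it was lower than 67NR in 168FARN (-0.59, 0.0137) and 4T07 (-0.54, 0.0237). In 4T07 it was also called with an intensity trend (-0.47, 0.0358) and without 4T07 array 3 (-0.62, 0.0247). C1qa fell in 168FARN against 67NR (-0.64 ± 0.19, 0.0223), and without arrays 2 and 3 of 168FARN the difference was -1.05 (0.0107). That call was lost without 67NR array 2 (0.0679), 67NR array 3 (0.0623) or 168FARN array 1 (0.0878). C1qa was also higher in 4T1 than in 168FARN (0.53 ± 0.19, 0.0445; 0.94 without arrays 2 and 3), and leaving out 67NR array 1, 2 or 3, 168FARN array 1, 4T07 array 2 or any 4T1 array ended that call (adjusted p from 0.0547 to 0.182).

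Cfd, the protease that activates factor B and a product of fat cells, passed the test in no comparison (smallest adjusted p = 0.113), with line means from 8.15 ± 0.43 to 9.20 ± 0.47. Of 6 genes for terminal components tested, C6 and Hc (the mouse C5 gene) were lowest in 168FARN. Hc read 4.67 ± 0.17 there, under the background level, against 5.75 ± 0.41 in 67NR (-1.08 ± 0.25, adjusted p = 0.00675). Without arrays 2 and 3 of 168FARN that difference was -1.07, with a single array left in the line. Hc was higher in 4T07 than in 168FARN (0.91, 0.0161), a call lost without 168FARN array 2 (0.0623) or 4T07 array 3 (0.0661). For 4T1 the difference from 168FARN was 0.80 (0.0278), a call lost without 168FARN array 1 (0.0556) or 2 (0.0942) or 4T1 array 2 (0.114). C6 fell from 7.78 ± 0.15 in 67NR to 4.66 ± 0.41 in 168FARN, within the background range (-3.12 ± 0.29, adjusted p = 6.53e-06), and to 6.58 ± 0.17 in 4T1 (-1.20 ± 0.29, 0.00845). C8a, C8b and C9 were under the background level in every line. None of the 4 genes tested for soluble regulators, Cfi, C4bp, Vtn and Cpn1, passed the limma test in any comparison, and none had an unadjusted p under 0.05. Cfi, C4bp and Cpn1 were under the background level in every line, so the test says nothing of them.

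Receptors moved in both directions. Vsig4, a complement receptor of resident macrophages, fell from 8.36, 8.79 and 8.08 in 67NR to 4.46, 4.59 and 4.52 in 4T07 (-3.89 ± 0.19, adjusted p = 2.69e-08), within the background range, and to 6.23 ± 0.18 in 168FARN and 5.95 ± 0.24 in 4T1. Itgax and Itgb2, the chains of complement receptor 4, rose in 4T07 over 67NR (1.31 ± 0.17, 0.000102, and 0.98 ± 0.16, 0.000693) and in 4T1 (1.13 ± 0.17, 0.000361, and 0.72 ± 0.16, 0.00648). Itgam, the partner of Itgb2 in complement receptor 3, read 9.95 ± 0.11 in 67NR and 9.96 ± 0.11 in 4T07, and was lowest in 168FARN at 9.28 ± 0.28. Its difference of 168FARN from 67NR was -0.67 ± 0.15, and -0.56 without arrays 2 and 3 of 168FARN. C5ar2, a further receptor for C5a, rose over 168FARN in 4T07 (1.96 ± 0.31, 0.000459) and in 4T1 (1.51 ± 0.31, 0.00248), and without arrays 2 and 3 of 168FARN the call in 4T1 was lost (0.93, 0.101). The level in 168FARN, 4.75 ± 0.67, was under background, and with the mean of probesets the differences were 0.85 and 0.70. The neutrophil and macrophage lists above moved in these comparisons too. C3ar1 differed by -0.30 ± 0.19 between 4T07 and 67NR, where Itgax rose and Vsig4 fell.

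Of 7 membrane regulators tested, 4 were called in at least 1 comparison. Cr1l, a mouse inhibitor of C3 and C4 deposition, was highest in 168FARN, at 8.59 ± 0.15 against 7.84 ± 0.12 to 7.95 ± 0.22 elsewhere. It rose over 67NR by 0.64 ± 0.17 (adjusted p = 0.015), a call lost without 168FARN array 3 (0.0568), 67NR array 3 (0.0692) or both 168FARN arrays 2 and 3 (0.252). Cd59a, an inhibitor of the pore, was lowest in 4T1, at 4.94 ± 0.21, under the background level. It fell there against 67NR (-0.56 ± 0.16, 0.0205), 168FARN (-0.63 ± 0.16, 0.00818) and 4T07 (-0.78 ± 0.16, 0.0192), and with dim probesets left out none of the 3 was called (adjusted p = 0.514, 0.275 and 0.802). Single arrays also ended its calls, without 67NR array 1 (0.082) or 2 (0.0684) or 4T1 array 2 (0.0987) against 67NR, and without 4T07 array 2 (0.0935) or 4T1 array 1 (0.0617) or 2 (0.0957) against 4T07. The call against 168FARN was lost without arrays 2 and 3 of 168FARN (0.125). Cd46, a cofactor for the cleavage of C3b and C4b, fell against 67NR in 168FARN (-0.85 ± 0.26, 0.0296) and 4T1 (-0.93 ± 0.26, 0.0197), to means of 4.92 ± 0.17 and 4.83 ± 0.19 under the background level. Without 67NR array 1 neither was called (0.119 and 0.0872), and 67NR array 2 (0.0585) or 168FARN array 2 (0.0663) or 3 (0.0937) also ended the first, as 4T1 array 2 (0.0585) or 3 (0.0738) did the second. The calls of Cd55b lay under the background level in every line.

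**Figure D5:**
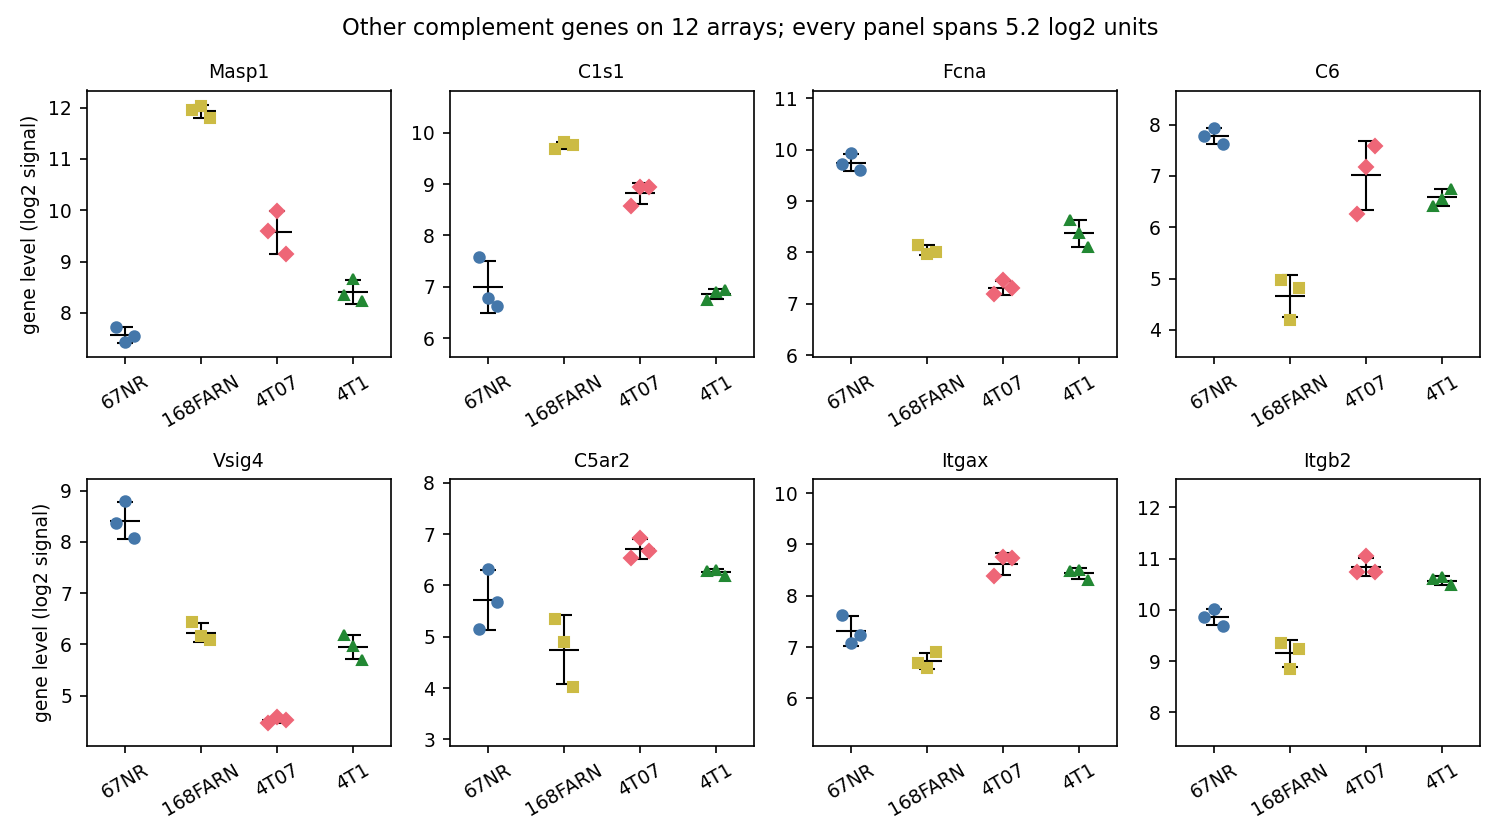
Gene level (median log2 signal of the probesets, vertical axis) of 8 other complement genes on the 12 arrays, by line, with mean and SD (n = 3) as bars. Masp1 and C1s1 are highest in 168FARN, Fcna and Vsig4 are highest in 67NR, C6 and C5ar2 are lowest in 168FARN, and Itgax and Itgb2 are high in 4T07 and 4T1.

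The genes whose level followed each member most closely over the 12 arrays were ranked by Pearson's r among 11970 genes above background, as a description, since the arrays share 4 lines. Nearest to Clu were Crip1 (r = 0.993), Galnt11 (0.987) and Vav3 (0.987). Crip1, a small LIM-domain protein gene, had means of 9.24 ± 0.17 in 67NR, 11.18 ± 0.23 in 168FARN, 10.94 ± 0.14 in 4T07 and 10.94 ± 0.05 in 4T1. Nearest to Serping1 were Gbp4 (0.974), a guanylate-binding protein gene, Nos2 (0.969), the inducible nitric oxide synthase, and Cxcl9 (0.958), a chemokine. Gbp4 read 11.53 ± 0.14 in 4T07, 9.83 ± 0.44 in 4T1, 8.96 ± 0.58 in 67NR and 8.70 ± 0.18 in 168FARN, the order of lines seen for Serping1.

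Plac8 was nearest to C3 (0.973) and second to C2 (0.941), with 9.48 ± 0.11 in 4T07 and 7.19 ± 0.23 to 8.07 ± 0.21 elsewhere. C3 was followed next by Svep1 (0.953) and Slc20a1 (0.949), and C2 most closely by Ptx3 (0.945), the long pentraxin, then by Plac8 and Iglv1 (0.938), an immunoglobulin light chain gene with 9.45 ± 0.64 in 4T07 and 6.13 ± 0.97 in 67NR. Cfb was nearest to Ptprc (0.926), the leukocyte antigen CD45, then Plbd1 (0.922) and Cd244a (0.920). C4b was nearest to Ctps2 (0.937), Slc39a8 (0.935) and Ncoa3 (0.935), and C3ar1 to Dram2 (0.924), Hadh (0.916) and Pgpep1 (0.874). C3, C2 and Serping1 shared the highest line, 4T07, and among the 3 genes nearest to each only Plac8 recurred. Correlations between the members were not computed, and lists of 3 genes do not show how alike the members are.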

How the data were processed

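Tumour RNA of 12 samples was measured on a mouse exon array, 1 array per sample. The deposited table holds 1 log2 signal for each probeset on each array. That scale was inferred from the values, and the authors' summarisation and normalisation are not given in the sources used here. Of 228090 probesets, 207232 carried 1 gene symbol, 3882 several and 16976 none, by the array's annotation, with 2111 symbols updated through RefSeq (GRCm38.p6). Gene levels are medians over at least 3 probesets, for 15025 genes. Lines were compared in R 4.3.3 with limma 3.58.1 (lmFit, eBayes, 1 mean per line, no covariate), Benjamini-Hochberg over all genes. Adjusted p-values and SEs of genes are from that fit. diffSplice used probesets above the 25th percentile, in genes above the 50th percentile with at least 4 such probesets. Both were tested on simulated data. Members and gene lists were chosen with earlier results of these data known, and TATAAA and TTGCNNAA were added after values were seen. Other complement genes named had the 3 largest called rises or falls in a comparison, or set a line apart from all others. The other genes named are listed neighbours, marker lists or nearest by r. C1qa, C1qb, C1qc, Cfd, Cd46, Cd55b, C8a, C8b, C9 and the soluble regulators were named from the list after their values were seen. Protein sequences were not used here. Alternatives were another normalisation, mean levels, filters on dim probesets or genes, an intensity trend, a replicate block, a splicing index, other percentiles and arrays left out.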

Additional observations from a re-analysis of the deposited data

How the results depend on the processing

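No difference called in the fit reported above was reversed in direction under any alternative run. C8g, not called there, was called by limma with dim probesets left out, with its sign changed in 2 comparisons. For 168FARN minus 67NR it was 0.50 (adjusted p = 0.0229) in place of -0.12. For 4T07 minus 168FARN it was -0.53 (0.0142) in place of 0.12. The number of members past the threshold between 4T1 and 168FARN, 1 as reported, was 3 with quantile normalization and with dim genes left out, 2 with the mean of probesets, and 4 with dim probesets left out and with an intensity trend. It was 0 without 168FARN array 2, 4T1 array 2 or 4T1 array 3, and 2 without 168FARN array 1, 168FARN array 3 or 4T07 array 1. Leaving out each array in turn gave 0 to 2 there, 2 to 3 for 168FARN or 4T1 against 67NR, 4 to 5 for 4T07 against 67NR, 5 to 6 for 4T07 against 168FARN and 2 to 4 for 4T1 against 4T07. Without arrays 2 and 3 of 168FARN, 6 of the other complement genes were called against 67NR in place of 16. Single arrays left out gave 12 to 16 there, 8 to 12 and 7 to 10 for 4T07 and 4T1 against 67NR, 11 to 14 and 11 to 13 for 4T07 and 4T1 against 168FARN, and 4 to 5 for 4T1 against 4T07.

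Of member probesets, 168FARN against 67NR gave 1 without arrays 2 and 3 of 168FARN and 2 with the splicing index, in place of 4. For 4T07 against 168FARN the 2 became 0 without those arrays, and 1 with the splicing index or above the 50th percentile. It was 0 without 168FARN array 2 and 1 without 4T07 array 1, 2 or 3. For 4T1 against 168FARN the splicing index gave 1 in place of 0, and for 4T1 against 4T07 quantile normalization and the fit without arrays 2 and 3 of 168FARN gave 1 in place of 0. Single arrays left out gave 3 to 4 for 168FARN and 4T07 and 2 to 3 for 4T1 against 67NR, 0 to 3 for 4T07 against 168FARN, and 0 to 1 for both others. The cause was not tested.

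Samples with the same replicate number showed little tendency to deviate together. Over 18 such pairs the correlation ran from -0.086 to 0.191, with a median of 0.0128 and 3 pairs over 0.1. Over 36 pairs with different numbers it ran from -0.16 to 0.224, with a median of -0.00947 and 2 pairs over 0.1. With the replicate number as a block, the members past the threshold between 4T1 and 168FARN were 2 in place of 1, and no other count of calls moved by over 1.5 times. For arrays, 3 per line limit the precision, and levels near 5.08 cannot be told from background, so falls to that range may be larger than given.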
